A study of Mus musculus with 6 samples.

Results

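The genes described here are 39 genes of mitosis: the kinases and cyclins of mitotic entry, the spindle checkpoint, the kinetochore, the chromosomal passenger complex, spindle assembly, chromosome structure and cytokinesis. The 12 mitotic kinesins of a separate list were left out, while the kinetochore motor Cenpe is among the 39. The 39 genes were taken from a list by gene symbol, and each gene's value was the mean of the probe sets annotated to that symbol alone. All 39 were found among the 22180 genes named on the arrays. All 39 reached the median of all values, 5.06 and called the floor here, on at least 1 array, as did 13652 of the 22180 genes. On all 6 arrays 21 of the 39 were at or above it. Every level below is a log2 signal, so a difference of 1 is a 2-fold difference.

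C2C12 cells are mouse myoblasts of an established line; they proliferate while serum is plentiful, and in differentiation medium they stop dividing and fuse to form myotubes with many nuclei. Total RNA of 6 cultures was hybridised, 1 Affymetrix array for each. Of the growth cultures in medium with 10% fetal bovine serum, 1 was untreated, 1 received 50 ng/ml of the cytokine TNF-α over 24 h, and 1 received BTZ, an abbreviation the labels do not spell out, at 10 nM over 24 h. The other cultures were grown the same way and then given 2% differentiation medium until harvest on day 5. Of these, 1 was untreated and the others received 50 ng/ml TNF-α or 10 nM BTZ on day 4. The labels name no genetic change in any group, and no serum source is stated for the differentiation medium. No harvest day is given for the growth cultures, so a difference between the media cannot be told apart from one of time in culture. The labels call all 6 cultures myoblasts. Of 8 myotube markers, 7 were at least 2-fold higher in untreated differentiation than in untreated growth medium (median difference 5.68), and 7 were at least 2-fold lower with BTZ in differentiation medium (median -2.55). The 6 myoblast markers were above the floor on at least 1 array. In untreated differentiation medium 5 of them were above untreated growth medium (median 1.26), and with TNF-α in differentiation medium all 6 were below the untreated array (median -0.86). With BTZ 3 of the 6 were lower by 2-fold or more in growth medium (median -0.94) and 4 in differentiation medium (median -1.13). Of 5 macrophage markers, Ptprc, Adgre1 and Itgam were under the floor on every array. Csf1r reached 5.07 on 1 array, and Cd68 was above the floor on all 6 (5.63 to 7.74) and higher by 1.17 with BTZ in growth medium. All 4 endothelial markers were under the floor throughout, while 2 of 4 adipocyte and 1 of 4 epithelial markers reached it on at least 1 array. The part of these markers in the results below was not tested.

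A dividing cell enters mitosis when CDK1, bound to cyclins A and B, is switched on. Kinetochores assembled on centromeres then attach the chromosomes to the spindle. The spindle checkpoint holds the anaphase-promoting complex, a ubiquitin ligase, inactive until every chromosome is attached. After release, cyclin B is degraded, the chromatids separate and the cytokinesis proteins pinch the cell apart. The genes for these proteins are transcribed late in the cell cycle, many through a promoter element called CHR, which the MuvB complex binds, together with upstream CCAAT boxes, which NF-Y binds. Muscle cells leave the cell cycle before they fuse.

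Promoter sequences show a feature of these genes that was not used to list them. RefSeq windows of 250 bases before to 50 bases after the transcription start (build GRCm38.p6) were held for 31 of the 39 genes. The CHR letters searched were TTTGAA or TTCGAA on either strand, where TTCGAA is its own reverse complement and was counted once, and the CCAAT box was CCAAT on either strand. A CHR was found in 23 of the 31 genes (74.2%), against 21.7% of the 27025 genes with a window of the same length. A CCAAT box was found in 23 of 31 (74.2%), against 41.1% of all genes, and 16 (51.6%) had at least 2, against 13.3%. Both were present in 20 of 31 (64.5%), against 8.61%. A CHR began between 30 bases before and 50 after the start in 23 of 31 genes, against 4.79% of all genes; that range was chosen after the positions were seen. The E2F-type letters GCGGGAA on either strand were in 0 of 31, near the low share of all genes, 5.29%. Other E2F-type letters were not searched, so whether these windows hold them is not known. These matches are descriptions of letters and neither binding sites nor causes of the levels that follow.

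The 150 bases before the transcription start are shown for 6 genes, selected after their values were seen. A CHR and a CCAAT box both lie within these 150 bases in 8 of the 31 genes. They do in every run shown except that of Cenpa, so the runs shown are not typical. A CHR began after the start in 17 of the 31. Bub1 and Anln, which differ more between the media with TNF-α than Depdc1a, have no CHR in these bases. Cdk1 encodes the mitotic kinase itself, Cdc20 and Ube2c act with the anaphase-promoting complex, Top2a has the most matches, and Depdc1a and Cenpa differ between the media in the TNF-α and the BTZ comparison respectively. Capitals mark CHR letters on either strand and CCAAT boxes on either strand, where the other strand reads TTCAAA for the first and ATTGG for the second. The regions are chr10:69352913-69353062 on the minus strand for Cdk1, chr4:118437344-118437493 on the minus strand for Cdc20, chr2:164769779-164769928 on the plus strand for Ube2c, chr11:99024190-99024339 on the minus strand for Top2a, chr3:159495283-159495432 on the plus strand for Depdc1a and chr5:30666736-30666885 on the plus strand for Cenpa. They lie upstream of the start, and the last bases of the Top2a, Depdc1a and Cenpa runs lie within the span RefSeq gives the gene.
Cdk1: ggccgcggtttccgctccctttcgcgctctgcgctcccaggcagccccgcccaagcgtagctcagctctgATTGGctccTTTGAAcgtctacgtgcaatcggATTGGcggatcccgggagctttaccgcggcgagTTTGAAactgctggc
Cdc20: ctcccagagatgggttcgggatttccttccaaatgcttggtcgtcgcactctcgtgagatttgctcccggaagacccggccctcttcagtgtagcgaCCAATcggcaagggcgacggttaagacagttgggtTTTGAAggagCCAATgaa
Ube2c: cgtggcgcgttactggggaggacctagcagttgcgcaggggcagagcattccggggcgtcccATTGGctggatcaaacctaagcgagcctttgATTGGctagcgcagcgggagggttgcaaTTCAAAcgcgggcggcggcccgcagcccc
Top2a: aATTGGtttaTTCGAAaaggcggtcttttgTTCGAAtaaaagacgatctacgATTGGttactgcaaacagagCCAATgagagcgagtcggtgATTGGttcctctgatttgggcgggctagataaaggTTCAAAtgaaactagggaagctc
Depdc1a: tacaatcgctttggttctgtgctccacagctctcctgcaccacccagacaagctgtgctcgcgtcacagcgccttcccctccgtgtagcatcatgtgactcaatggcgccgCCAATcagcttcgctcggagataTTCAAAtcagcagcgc
Cenpa: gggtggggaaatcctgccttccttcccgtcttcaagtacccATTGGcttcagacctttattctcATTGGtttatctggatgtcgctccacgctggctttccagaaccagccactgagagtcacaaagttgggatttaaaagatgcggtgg
In the Cdk1 run a CHR begins 15 bases before the start, below a pair of CCAAT boxes. In Cdc20 it begins 18 bases before the start. The CHR of Cenpa begins 17 bases after the start and so lies outside the bases printed, which hold its CCAAT boxes only.

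The levels of the 39 genes fell into a common order across the cultures. Their median was 9.05 in untreated growth medium, 9.51 with TNF-α and 6.98 with BTZ. In differentiation medium it was 6.32 untreated, 7.02 with TNF-α and 5.14 with BTZ. Growth medium with TNF-α held the highest value of all 39 genes, or of all but Nuf2 after quantile normalization. Differentiation medium with BTZ held the lowest value of 37 genes. For the other two, Bora and Cenpa, the lowest was untreated differentiation medium, by 0.01 and 0.18, and for Bora the order of those arrays turned under both other scalings. In differentiation medium with BTZ 18 of the 39 were under the floor, against 0, 0 and 1 in growth medium (untreated, TNF-α and BTZ) and 2 and 0 in differentiation medium (untreated and TNF-α). No detection calls were used, so a difference whose lower value is under the floor may understate the fold. The RNA is from whole cultures, so fewer dividing cells and less RNA per cell cannot be told apart.

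**Figure D1:**
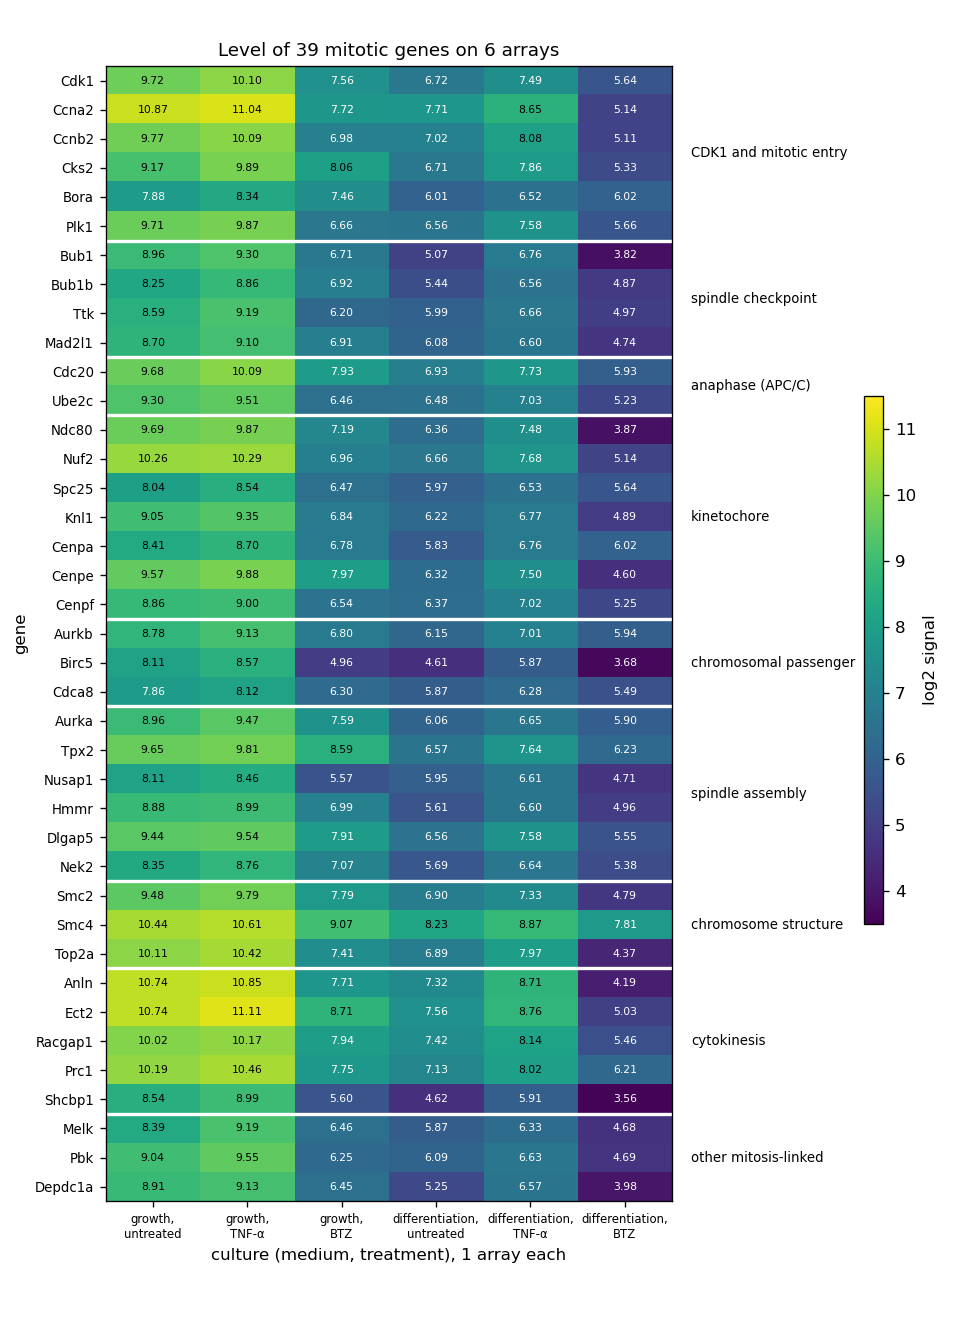
Log2 signal of each of the 39 genes (rows, grouped by role) on each of the 6 arrays (columns, 1 culture each), printed in the cells and shown by colour. Colours are to be compared along a row; each gene has its highest value in growth medium with TNF-α, except Nuf2 after quantile normalization.

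The arrays between these ends changed places from gene to gene. For 18 genes the order from high to low was growth with TNF-α, growth untreated, differentiation with TNF-α, growth with BTZ, differentiation untreated and differentiation with BTZ. For 16 genes growth with BTZ was above differentiation with TNF-α and the rest of the order was the same. Those neighbours were close: their median difference over the 39 genes was 0.05, with 21 genes higher in differentiation medium with TNF-α and 18 lower. Untreated differentiation medium was below growth medium with BTZ for 36 of 39 genes, with a median difference of -0.83. Ccnb2, Nusap1 and Ube2c were the exceptions.

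**Figure D2:**
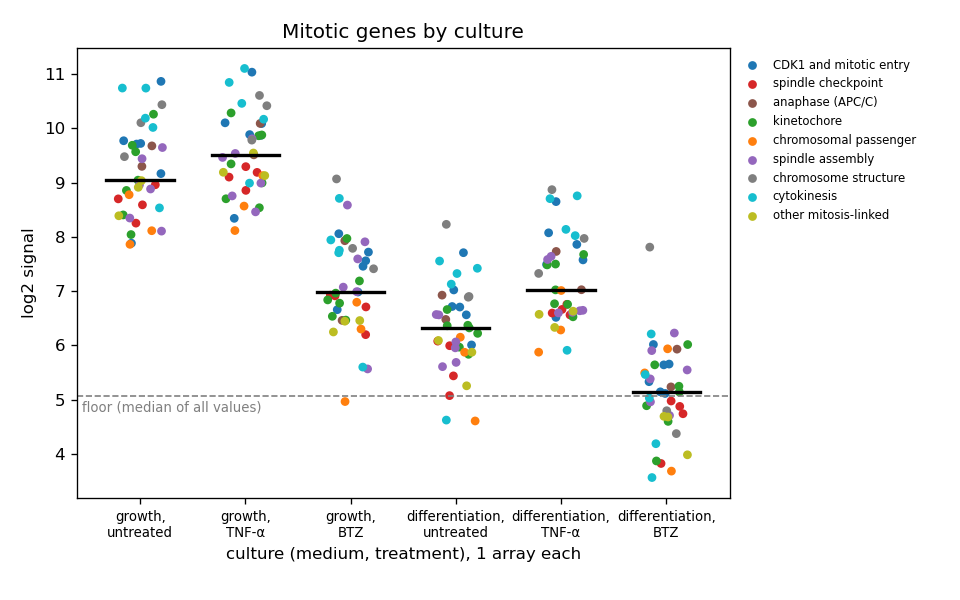
Log2 signal of the 39 genes (points, coloured by role) in each of the 6 cultures, with a bar at the median and a dashed line at the floor of 5.06. The medians run from 9.51 in growth medium with TNF-α down to 5.14 in differentiation medium with BTZ.

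All 39 genes were lower in untreated differentiation medium than in untreated growth medium, and all 39 by at least 2-fold. The same held for 3.92% of the 13652 genes that reached the floor. The median difference was -2.82 over the 39 genes and 0.01 over all genes. It ran from -3.91 for Shcbp1, which was also the lowest of all 13652 genes, to -1.88 for Bora. There was 1 array for each culture, so a difference between a pair of arrays has no replicate check, and no p-value is given for one.

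Among the genes of mitotic entry, Cdk1 read 9.72 untreated, 10.10 with TNF-α and 7.56 with BTZ in growth medium. In differentiation medium it read 6.72, 7.49 and 5.64 in the same order. Its 3 differentiation arrays were thus lower than the matching growth arrays, with differences of -3.01, -2.61 and -1.92. Ccna2, the cyclin that acts in S phase and early mitosis, read 10.87, 11.04 and 7.72 in growth medium and 7.71, 8.65 and 5.14 in differentiation medium. Untreated differentiation medium and growth medium with BTZ gave almost the same Ccna2 level. Ccnb2, a B-type cyclin, read 9.77, 10.09 and 6.98 in growth medium and 7.02, 8.08 and 5.11 in differentiation medium. Cks2 encodes a small subunit that binds CDK1. It read 9.17, 9.89 and 8.06 in growth medium and 6.71, 7.86 and 5.33 in differentiation medium, so its level with BTZ in growth medium stayed above the level of every differentiation array. Cks2 was the only one of the 39 genes with more than 1 probe set: 3 of its 4 gave identical values and the fourth was lower on every array.

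PLK1 is a kinase of mitotic entry and Bora is the cofactor that helps Aurora A activate it. Plk1 read 9.71, 9.87 and 6.66 in growth medium and 6.56, 7.58 and 5.66 in differentiation medium. Bora read 7.88, 8.34 and 7.46 in growth medium and 6.01, 6.52 and 6.02 in differentiation medium. Bora therefore separated by medium, while Plk1 was nearly as low with BTZ in growth medium as it was in untreated differentiation medium.

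The 4 spindle checkpoint genes had differences between the untreated media of -3.89 to -2.60. Bub1, a checkpoint kinase of the kinetochore, read 8.96, 9.30 and 6.71 in growth medium and 5.07, 6.76 and 3.82 in differentiation medium. This was a 14.8-fold difference between the untreated cultures, and the level with TNF-α in differentiation medium was close to that with BTZ in growth medium. Bub1b, which encodes the checkpoint protein BubR1, read 8.25, 8.86 and 6.92 in growth medium and 5.44, 6.56 and 4.87 in differentiation medium. Ttk, the checkpoint kinase also known as Mps1, read 8.59, 9.19 and 6.20, then 5.99, 6.66 and 4.97. Mad2l1 encodes MAD2, which binds and holds CDC20. It read 8.70, 9.10 and 6.91 in growth medium and 6.08, 6.60 and 4.74 in differentiation medium. For all 4 genes the differentiation array with BTZ was under the floor.

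Cdc20, the activator of the anaphase-promoting complex, read 9.68, 10.09 and 7.93 in growth medium and 6.93, 7.73 and 5.93 in differentiation medium. Ube2c, the ubiquitin-conjugating enzyme of that complex, read 9.30, 9.51 and 6.46, then 6.48, 7.03 and 5.23. Both were lower by a like amount in untreated differentiation medium, -2.75 and -2.82. The 14 core subunits of the complex itself had a median difference of -0.05. Of these, 0 of 14 were past 2-fold in either direction, where few genes were: 3.92% of all genes were lower and 4.83% higher.

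Of the kinetochore genes, Ndc80 and Nuf2 encode partners in the complex that grips microtubules. Ndc80 read 9.69, 9.87 and 7.19 in growth medium and 6.36, 7.48 and 3.87 in differentiation medium. Nuf2 read 10.26, 10.29 and 6.96 in growth medium and 6.66, 7.68 and 5.14 in differentiation medium. Spc25, in the same complex, spanned a smaller range, with 8.04, 8.54 and 6.47 in growth medium and 5.97, 6.53 and 5.64 in differentiation medium. Cenpe, a kinetochore motor, read 9.57, 9.88 and 7.97, then 6.32, 7.50 and 4.60. Knl1, the scaffold that recruits BUB proteins, read 9.05, 9.35 and 6.84, then 6.22, 6.77 and 4.89. Cenpa encodes the histone H3 variant that marks centromeres. It read 8.41, 8.70 and 6.78 in growth medium and 5.83, 6.76 and 6.02 in differentiation medium, where its level with BTZ was above that of the untreated array. Cenpf, a large kinetochore-associated protein, differed by -2.49 between the untreated media.

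The chromosomal passenger complex holds Aurora B at centromeres and later at the midzone. Aurkb read 8.78, 9.13 and 6.80 in growth medium and 6.15, 7.01 and 5.94 in differentiation medium. Birc5, which encodes the subunit survivin, read 8.11, 8.57 and 4.96, then 4.61, 5.87 and 3.68. It was the only one of the 39 genes under the floor in growth medium with BTZ. Cdca8, which encodes borealin, read 7.86, 8.12 and 6.30 in growth medium and 5.87, 6.28 and 5.49 in differentiation medium.

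The spindle assembly genes had differences between the untreated media of -3.28 (Hmmr) to -2.15 (Nusap1). Aurka, the kinase of spindle poles, read 8.96, 9.47 and 7.59 in growth medium and 6.06, 6.65 and 5.90 in differentiation medium. Its activator Tpx2 read 9.65, 9.81 and 8.59, then 6.57, 7.64 and 6.23. Both kept a clear gap between growth medium with BTZ and every differentiation array. Nusap1, a microtubule-binding protein, read 8.11, 8.46 and 5.57 in growth medium and 5.95, 6.61 and 4.71 in differentiation medium, so growth medium with BTZ was below untreated differentiation medium. Hmmr, another spindle protein, read 8.88, 8.99 and 6.99, then 5.61, 6.60 and 4.96. Dlgap5 read 9.44, 9.54 and 7.91 in growth medium and 6.56, 7.58 and 5.55 in differentiation medium, and Nek2, a centrosomal kinase, differed by -2.66 between the untreated media.

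Smc2 and Smc4 encode the core of condensin, which compacts chromosomes, and Top2a the topoisomerase that untangles them. Smc2 read 9.48, 9.79 and 7.79 in growth medium and 6.90, 7.33 and 4.79 in differentiation medium. Smc4 read 10.44, 10.61 and 9.07, then 8.23, 8.87 and 7.81. Top2a read 10.11, 10.42 and 7.41, then 6.89, 7.97 and 4.37. With BTZ in differentiation medium Smc2 and Top2a were under the floor and Smc4 was far above it. Another 2 probe sets were annotated to both Top2a and Taf1d and were not used. Between the untreated media they differed by -1.61 and -0.99, where the Top2a set used gave -3.22. With BTZ they gave -0.34 and -0.24 in growth medium (-2.69 for the set used). In differentiation medium they gave 0.04 and -0.29 (-2.52 for the set used). A probe set shared by Oip5 and Nusap1 was not used either. It differed by -1.87 between the untreated media (-2.15 for Nusap1) and by -1.04 with BTZ in growth medium (-2.54 for Nusap1). With BTZ in differentiation medium it gave 0.05 (-1.25 for Nusap1). Its levels there, 3.71 untreated and 3.75 with BTZ, were both under the floor, where a lower level could hardly show. Its level with BTZ in growth medium, 4.53, was under the floor as well. Which gene the shared sets measure was not tested.

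The cytokinesis genes had the lowest median difference between the untreated media of all roles, -3.19. Anln encodes anillin, a scaffold of the contractile ring. It read 10.74, 10.85 and 7.71 in growth medium and 7.32, 8.71 and 4.19 in differentiation medium. Ect2, the exchange factor that activates RhoA at the cleavage site, read 10.74, 11.11 and 8.71, then 7.56, 8.76 and 5.03. Anln and Ect2 thus covered more than 6 log2 units between their highest and lowest arrays. Racgap1, the partner of ECT2 at the midzone, read 10.02, 10.17 and 7.94 in growth medium and 7.42, 8.14 and 5.46 in differentiation medium. Prc1, which bundles midzone microtubules, read 10.19, 10.46 and 7.75, then 7.13, 8.02 and 6.21. Shcbp1 read 8.54, 8.99 and 5.60 in growth medium and 4.62, 5.91 and 3.56 in differentiation medium, a 15.1-fold difference between the untreated cultures.

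Melk and Pbk encode kinases found in dividing cells, and Depdc1a a protein linked to mitotic progression. Melk read 8.39, 9.19 and 6.46 in growth medium and 5.87, 6.33 and 4.68 in differentiation medium. Pbk read 9.04, 9.55 and 6.25, then 6.09, 6.63 and 4.69. Depdc1a read 8.91, 9.13 and 6.45, then 5.25, 6.57 and 3.98. The 3 genes kept the order of media seen in the other roles.

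The difference between the media was present under each treatment. With TNF-α on both sides, every one of the 39 genes was lower in differentiation medium by 2-fold or more, as were 4.85% of all genes, and their median difference was -2.38. With BTZ on both sides 34 of 39 were, as were 2.13% of all genes, and the median was -1.92. The genes short of 2-fold there were Spc25, Cenpa, Aurkb, Cdca8 and Nusap1. Ect2 had the largest difference with BTZ, -3.68, and Cenpa the smallest, -0.76. Of the 21 genes at or above the floor on both BTZ arrays, 17 were at least 2-fold lower.

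The differences with TNF-α in growth medium were small. All 39 genes were above the untreated array, or 38 after quantile normalization, which took Nuf2 from 0.02 to -0.03. Of the 13652 genes 53.8% were above it, and the median was 0.31 against 0.03 for all genes. None of the 39 reached 2-fold, where 0.982% of all genes were past 2-fold upwards and 1.02% downwards. The values ran from 0.02 for Nuf2 to 0.80 for Melk. Cks2 was next to Melk at 0.72.

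In differentiation medium with TNF-α 16 of 39 genes were at least 2-fold higher than in untreated differentiation medium, and all 39 were above it. Of all genes, 2.01% were at least 2-fold higher. The median was 0.92 over the 39 genes and 0.01 over all genes. Bub1 had the largest difference at 1.68, followed by Anln at 1.38, Depdc1a at 1.32, Shcbp1 at 1.29 and Birc5 at 1.27. Cdca8 had the smallest, 0.41. By role, 3 of 5 cytokinesis genes, 3 of 7 kinetochore genes, 3 of 6 genes of mitotic entry, 2 of 4 checkpoint genes and 2 of 6 spindle genes were past 2-fold. Neither Cdc20 nor Ube2c was, at 0.81 and 0.55. Plk1 (1.01) and Nuf2 (1.02) were just inside the threshold, and Hmmr (0.99) was just outside it. Every gene with TNF-α in differentiation medium stayed below its level in untreated growth medium, with a median difference of -2.06.

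The difference with TNF-α was larger in differentiation than in growth medium for 38 of 39 genes, with a median gap of 0.54. Melk was the exception at -0.34. The gap was at least 1 log2 unit for Bub1 (1.35), Anln (1.28) and Depdc1a (1.10), which is 3 of 39, where 1.84% of all genes had a gap that large in that direction. The TNF-α differences of the 2 media use no array in common. Across the 39 genes their Pearson r was -0.19 and their Spearman rho -0.16, against 0.48 and 0.36 across all 13652 genes, and genes of 1 array are not independent. The TNF-α differences in growth medium had an SD of 0.18 over the 39 genes and 0.40 over all genes. Correlations over such unlike ranges cannot be compared directly. With 1 array for each culture, this gap between media has no test.

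With BTZ in growth medium all 39 genes were lower, and 38 were at least 2-fold lower than in untreated growth medium. Of all genes, 6.16% were. The median was -2.07 over the 39 genes and 0.02 over all genes. The lowest were Nuf2 at -3.30, Birc5 and Ccna2 both at -3.15, Plk1 at -3.05 and Anln at -3.04. Bora, at -0.43, was the 1 gene that did not reach 2-fold. Tpx2 (-1.06) and Cks2 (-1.11) were just past the threshold. The spindle assembly genes had a median of -1.45 and those of mitotic entry -2.48.

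BTZ in differentiation medium gave a wider spread over the 39 genes, with an SD of 0.78 against 0.68 in growth medium. All genes showed the same, with 0.79 against 0.66. Of the 39 genes 24 were at least 2-fold lower than in untreated differentiation medium, where 8.91% of all genes were, and the median was -1.12. Anln was the lowest at -3.14, followed by Ccna2 at -2.57, Ect2 at -2.53, Top2a at -2.52 and Ndc80 at -2.49. Bora (0.01) and Cenpa (0.18) were the 2 genes not below the untreated array. Bora was below it with arrays shifted to one median (-0.02) and after quantile normalization (-0.01), where Cenpa stayed above it (0.15 and 0.16). In the chromosomal passenger complex 0 of 3 genes reached 2-fold, with Birc5 at -0.92, Cdca8 at -0.38 and Aurkb at -0.21. Aurka (-0.16), Nek2 (-0.30), Spc25 (-0.33), Tpx2 (-0.34) and Smc4 (-0.42) also had small differences. In cytokinesis 4 of 5 genes reached it. Ttk and Dlgap5 were just inside the threshold at -1.02 each, and Cdc20 was just outside at -0.996. Of the 21 genes at or above the floor on both arrays, 9 were past 2-fold, and their median was -0.92. The myotube markers named above were lower on the same array, and their part in the result was not tested.

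**Figure D3:**
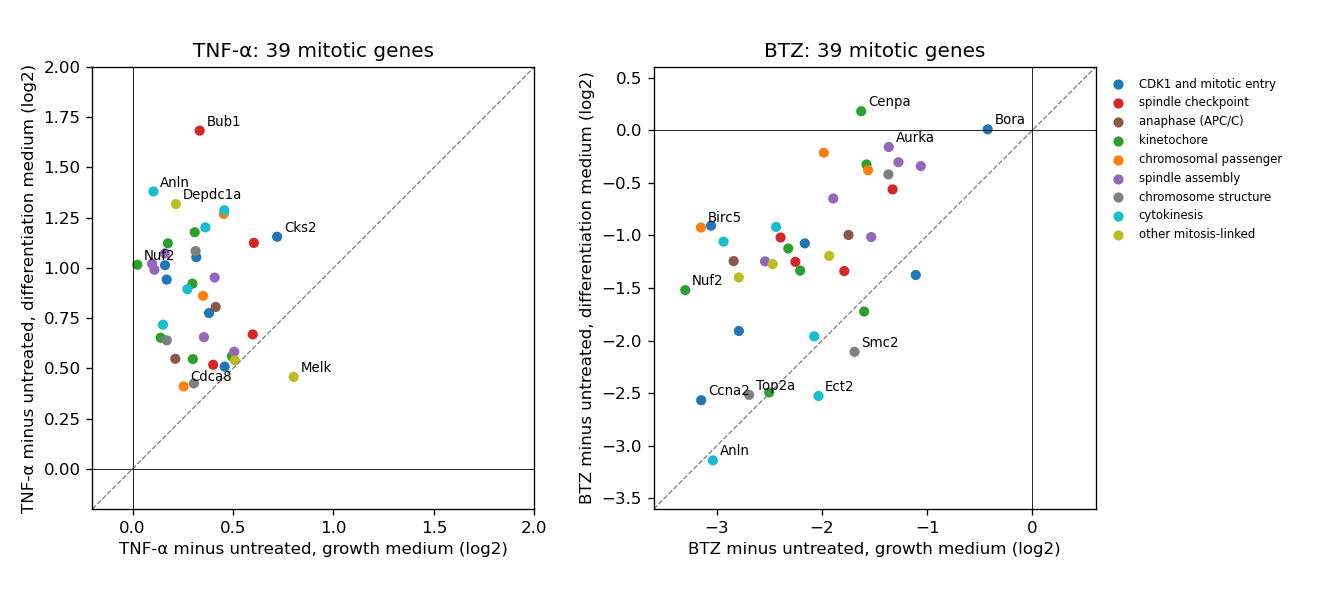
Log2 difference of TNF-α (left) or BTZ (right) from the untreated array in growth medium (x axis) and differentiation medium (y axis) for the 39 genes, coloured by role; the dashed line marks equal differences. With TNF-α 38 genes lie above the line, and with BTZ 34 do, Cenpa being above 0 in differentiation medium and Bora at 0.01, a sign that turns under both other scalings.

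The BTZ difference was smaller in size in differentiation than in growth medium for most genes. The gap, differentiation minus growth, was above 0 for 34 of 39 genes, with a median of 0.97. It was at least 1 log2 unit for 19 genes, where 3.26% of all genes had one that large in that direction. The largest were Birc5 at 2.23, Plk1 at 2.15, Shcbp1 at 1.88, Cenpa at 1.81 and Nuf2 at 1.78. The 5 genes with a gap below 0 were Ect2 (-0.49), Smc2 (-0.42), Cks2 (-0.27), Cenpe (-0.12) and Anln (-0.10). Birc5 and Shcbp1 were already under the floor in untreated differentiation medium, so their BTZ differences there may understate the fold. Bub1, Ttk, Nusap1, Hmmr, Pbk and Depdc1a also had a gap of at least 1 and were under the floor with BTZ there. Their BTZ differences in differentiation medium may be understated too, which would make the gap too large. Among the 21 genes at or above the floor on the 4 arrays, 11 had a gap of at least 1, with a median of 1.09. Across the 39 genes the BTZ differences of the 2 media, which share no array, had a Pearson r of 0.55 and a Spearman rho of 0.53, against 0.66 and 0.61 across all genes. The BTZ gap and the TNF-α gap use the same untreated arrays, so they are not independent of each other. An untreated array that read high or low for these genes would move both gaps.

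A single model could be tested over the 6 arrays: an additive one of medium and treatment, which takes each treatment's effect as equal in both media and leaves 2 residual degrees of freedom. Fitted with limma over all 13652 genes, with Benjamini-Hochberg adjustment at 0.05, it called 38 of the 39 genes lower in differentiation medium, where 2.47% of all genes were called lower. The effect was -2.68 for Smc2 (SE 0.16, limma adjusted p = 0.00511), -2.90 for Top2a (SE 0.19, limma adjusted p = 0.00511) and -3.10 for Bub1 (SE 0.27, limma adjusted p = 0.00619). Cenpa was the exception, with an effect of -1.76 (SE 0.34, limma adjusted p = 0.0535). For BTZ 30 of 39 genes were called lower, where 6.85% of all genes were. The effect was -3.09 for Anln (SE 0.36, limma adjusted p = 0.0121) and -2.86 for Ccna2 (SE 0.23, limma adjusted p = 0.00929). The 9 genes not called for BTZ were Aurka, Aurkb, Bora, Cdca8, Cenpa, Nek2, Smc4, Spc25 and Tpx2. For TNF-α the limma fit called 0 of 39 (lowest adjusted p = 0.457, for Cks2), with 9 at an unadjusted p under 0.05, and it called 0.0806% of all genes higher and 0.0146% lower. The calls depended on single arrays. Without the untreated growth array, or without the untreated differentiation array, 0 of 39 were called for medium and 0 for BTZ by limma, while all 39 had an unadjusted p under 0.05 for medium in both fits. For BTZ, 28 and 37 of the 39 had an unadjusted p under 0.05 in those fits. Without either TNF-α array 23 were called for medium and 24 for BTZ. Without the growth array with BTZ 39 were called for medium and 28 for BTZ, and without the differentiation array with BTZ 39 and 37. In each of the last pair of fits 1 gene was called higher for TNF-α. The median residual SD was 0.42 over the 39 genes and 0.18 over all genes, and in this design it includes any difference of a treatment's effect between the media. The limma fit moves each gene's variance toward that of genes of like level. Its SEs and p-values thus do not rest on a gene's own residuals alone. For a gene with larger residuals than those genes, the SE is smaller than its own residuals would give.

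Genes that work beside the 39 were read from further lists, whose counts are to be set against all genes: 3.92% were at least 2-fold lower for medium, 6.16% with BTZ in growth medium and 8.91% with BTZ in differentiation medium, and 2.01% were higher with TNF-α in differentiation medium. Of 67 other mitotic genes above the floor (76 listed), 54 were at least 2-fold lower in untreated differentiation medium (median -1.67), 39 with BTZ in growth medium (median -1.29) and 12 with BTZ in differentiation medium (median -0.38). With TNF-α in differentiation medium 7 of them were at least 2-fold higher (median 0.31). All 12 listed mitotic kinesins, motors of the spindle, were at least 2-fold lower in untreated differentiation medium (median -2.71), from Kif11 at -3.54 to Kifc1 at -1.95. With BTZ 11 of 12 were in growth medium (median -2.27) and 5 of 12 in differentiation medium (median -0.87), and with TNF-α in differentiation medium 2, Kif11 (1.12) and Kif15 (1.02), were higher (median 0.82). Of 42 DNA replication genes, 33 were at least 2-fold lower in untreated differentiation medium (median -1.65, from Mcm5 at -2.86 to Orc2 at -0.37), 14 with BTZ in growth medium (median -0.69) and 5 with BTZ in differentiation medium (median -0.39), a share near that of all genes. With TNF-α the replication genes had a median of 0.43 in growth and 0.32 in differentiation medium, whereas the 39 mitotic genes had 0.31 and 0.92. These differences between lists were not tested.

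**Figure D4:**
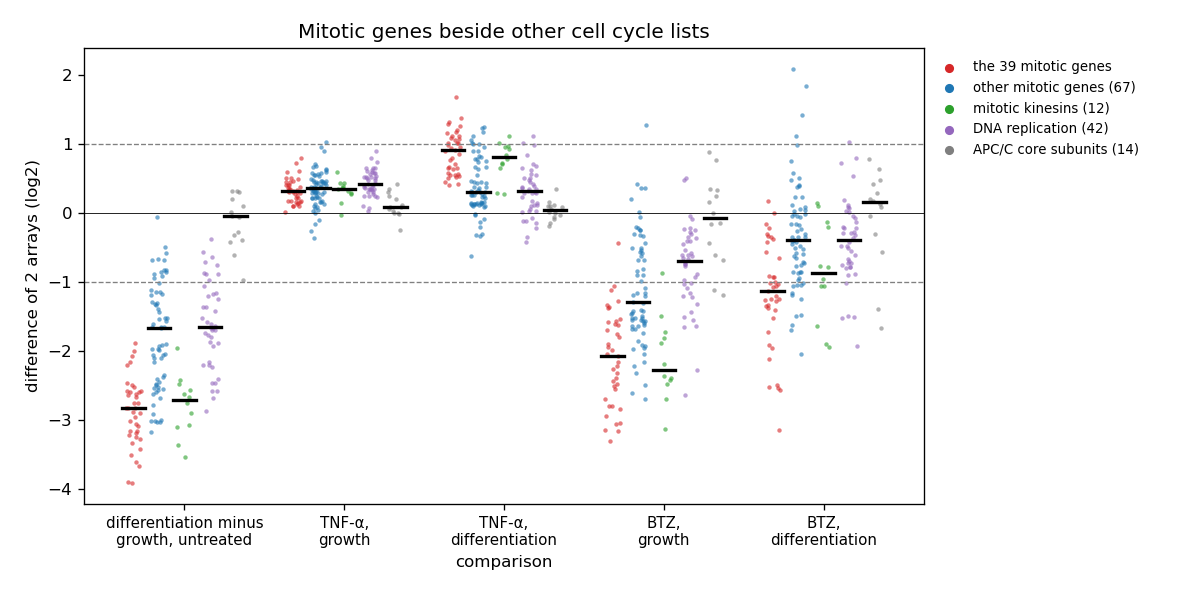
Log2 differences of the genes in each list (points) with the list's median (bar), for the 39 mitotic genes and the other lists, in the comparisons named below the x axis. The 39 genes have medians of -2.82 for medium, 0.31 and 0.92 for TNF-α and -2.07 and -1.12 for BTZ, growth medium before differentiation medium.

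Genes listed as transcription regulators of mitotic genes were measured on the same arrays, and their action on these promoters was not tested. Of 20 transcription regulators, 8 were at least 2-fold lower in untreated differentiation medium (3.92% of all genes) and 1, E2f2, was higher (1.32; 4.83% of all genes). Foxm1, the forkhead factor that activates mitotic genes, read 9.01 untreated, 9.07 with TNF-α and 6.68 with BTZ in growth medium, and 6.69, 7.05 and 5.94 in differentiation medium. Its differences were -2.32 for medium and -2.33 and -0.75 for BTZ in growth and differentiation medium, so its arrays ranked as those of the 39 genes did at the top and at the bottom. The others lower in differentiation medium were Rbl1 (-2.005), E2f7 (-1.98), Mybl2 (-1.46), E2f8 (-1.42), Lin9 (-1.39), Lin54 (-1.20) and Tfdp1 (-1.17). With BTZ in growth medium E2f8 (-2.91), Foxm1, E2f7 (-1.97) and Rbl1 (-1.65) were at least 2-fold lower, as were 6.16% of all genes. With BTZ in differentiation medium E2f8 (-2.47), Tfdp2 (-2.14), E2f2 (-1.996) and Rbl1 (-1.25) were lower, and E2f6 (1.48) and Lin54 (1.35) were higher, against 8.91% and 6.05% of all genes. With TNF-α 0 of the 20 were past 2-fold in either medium, where few genes were: 1.02% lower and 0.982% higher in growth medium, and 0.879% lower and 2.01% higher in differentiation medium. Cdkn1a, the CDK inhibitor p21, ran the other way between the media, with 9.06, 9.79 and 10.50 in growth medium and 12.38, 12.25 and 11.54 in differentiation medium. Of 8 CDK inhibitors listed, only Cdkn1a was at least 2-fold higher in untreated differentiation medium. Cdkn3 (-1.86) was at least 2-fold lower, 6 of the 8 were below 0 and their median was -0.19. The proliferation marker Mki67 read 11.06, 11.28 and 9.02 in growth medium and 8.05 and 9.11 in differentiation medium untreated and with TNF-α, and differed by -2.05 with BTZ there. Ccnb1 was not measured through a probe set of its own.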

How the data were processed

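RNA of 6 C2C12 cultures, 1 per group, was extracted with TRIzol and labelled with a whole-transcript kit, per the labels. The deposited table holds 1 value per probe set and array. It was taken as the authors' log2 signal because its values run from 1.66 to 14.06. The labels do not state the log base, and the sources used here give neither the normalization nor the background correction or summarization. Of 41345 probe sets, 23521 named 1 gene symbol in the platform annotation, 1814 named several and 16010 were unnamed. Single-symbol probe sets of 1 gene were averaged. Genes were kept where any array reached the median of all values, 5.06. Log2 differences of arrays were computed in Python 3.11.15, with 2-fold as the threshold. The additive model was fitted with limma 3.58.1 in R 4.3.3 (eBayes with trend). Beforehand it was run on simulated data with independent noise and BTZ effects equal in both media. That simulation does not cover treatment differences that vary between the media, as those of the 39 genes did. No array was dropped or rescaled. Alternatives were 2 other scalings, the highest probe set per gene, other floors, no trend, and each array left out. The number of arrays limits the precision, and every sample is labelled replicate 1. Promoters came from RefSeq, GRCm38.p6. All 39 genes are named. Both extremes of each role are given with all 6 values, and regulators past 2-fold, Cdkn1a, Mki67 and some of the 3 highest and 3 lowest genes of other lists are named; Zw10 was added after its value was seen. The genes, lists and rules were chosen with earlier results of these data known.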

Additional observations from a re-analysis of the deposited data

Results flagged for a closer look

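Cenpa stood out because it was past 2-fold with BTZ in 1 medium and differed with the opposite sign in the other. It was lower by a log2 difference of -1.63 in growth medium and higher by 0.18 in differentiation medium. With 1 array for each culture this difference between the media was not tested, and the differentiation value is small (0.15 with arrays shifted to one median and 0.16 after quantile normalization). Both differentiation levels, 5.83 untreated and 6.02 with BTZ, are above the floor of 5.06.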

How the results depend on the processing

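The 7 differences between arrays kept their direction for the median of the 39 genes under every scaling, probe set and floor alternative, and no gene past 2-fold changed sign. Among the 39 genes, 2 values near 0 did: Nuf2 with TNF-α in growth medium (0.02, and -0.03 after quantile normalization) and Bora with BTZ in differentiation medium (0.01, and -0.02 shifted to one median or -0.01 after quantile normalization). Requiring both arrays at or above the floor left 38 genes for BTZ in growth medium, of which 37 were at least 2-fold lower, and 21 for each comparison with the differentiation BTZ array: 17 were at least 2-fold lower between media with BTZ, 9 were with BTZ in differentiation medium (median -0.92), and 11 had a BTZ gap between media of at least 1 (median 1.09). After quantile normalization the median of that gap was 1.02. Requiring all 6 arrays at or above the floor, the limma fit called 21 of 21 genes for medium and 12 of 21 for BTZ. In the comparisons with the differentiation BTZ array and in the limma fit, these requirements left out the 18 genes under the floor on that array. They thus select genes by the lower value itself, and the counts hold only for the genes that remain. For the quantile value the cause was not tested. Leaving out each array in turn, chosen after seeing the data, gave 0 to 39 genes called lower for medium, 0 to 1 called higher for TNF-α and 0 to 37 called lower for BTZ, with 1 residual degree of freedom. Of the values of single genes, 269 stayed on their side of 2-fold with arrays shifted to one median (3 moved past it and 1 back) and 268 after quantile normalization (1 past it and 4 back). No paired analysis was possible because every label carries the same replicate number. With 1 array per culture, no difference of a pair of arrays has an error.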

Other observations

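Of 67 other mitotic genes, 4 were at least 2-fold higher with BTZ in differentiation medium, a share close to the 6.05% of all genes. Zwint, a kinetochore protein, read 9.28 untreated, 9.60 with TNF-α and 10.56 with BTZ in growth medium, and 8.37, 8.62 and 10.46 in differentiation medium, so both BTZ arrays were its highest. Its log2 difference with BTZ was 1.28 in growth and 2.09 in differentiation medium. Gas2l3 (1.84), Gtse1 (1.42) and Zw10 (1.12) were the others, and in growth medium they differed by -0.34, 0.21 and 0.43. At the other end of the list were Mki67 (-2.05), Cenpq (-1.69) and Ncapg2 (-1.62). Of the 14 core subunits of the anaphase-promoting complex, Anapc5 and Anapc13 were at least 2-fold lower with BTZ in both media, at -1.11 and -1.19 in growth medium and -1.66 and -1.39 in differentiation medium, where 6.16% and 8.91% of all genes were that much lower. None of these differences has a replicate check.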
